A study of Mus musculus with 11 samples.

Results

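The Rab GTPases are a large family of small GTPases that direct membrane traffic, and their genes were followed here across splenic dendritic cells. Members were taken by name alone, as every gene whose symbol on the array platform is Rab followed by a number and at most 2 letters. This rule found 62 of the 19938 genes measured. Of these, 59 encode Rab GTPases. The other members are Rab3ip, which encodes Rabin8, an activator of Rab8, together with Rab5if and the antisense transcript Rab10os, and they were kept in the counts and are named apart.

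The 11 arrays measured RNA of classical dendritic cells (cDCs) sorted from the spleens of C57BL/6 mice. There were 4 arrays of CD172a+ cDCs from Zeb2(fl/fl);CD11c-Cre(tg) mice, which the titles call CKO, 3 arrays of CD24+ cDCs from Zeb2(fl/fl) control mice, and 4 arrays of CD172a+ cDCs from Zeb2(fl/fl) control mice. All groups thus carried floxed Zeb2 alleles, and the Cre transgene, driven by the CD11c promoter that is active across CD11c-expressing cells, was present only in the CKO group. Zeb2 encodes a zinc-finger repressor, CD24+ cDCs correspond to cDC1 and CD172a+ cDCs to cDC2. The labels give no ages and do not say that replicates came from separate mice, so a p-value here speaks only of variation among these arrays, part of which could be technical.

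Rab proteins switch between a GDP-bound form held in the cytosol and a GTP-bound form on a membrane, where each Rab marks its own compartment and recruits effectors such as tethers and motors. Guanine nucleotide exchange factors (GEFs) turn a Rab on, GTPase-activating proteins (GAPs) turn it off, and geranylgeranylation anchors it in the membrane. In dendritic cells this traffic carries antigen through endosomes and phagosomes to the lysosome, brings MHC molecules to those compartments and returns them to the surface. cDC1 are known for cross-presentation, the loading of ingested antigen onto MHC class I.

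Values are log2 expression levels, in which a difference of 1 is a doubling, and a difference was called when limma's adjusted p, computed over all 19938 genes, was below 0.05. The subset labels were borne out by markers, since 7 of 8 cDC1 markers rose and 7 of 8 cDC2 markers fell in CD24+ against CD172a+ control cDCs. Zeb2 itself averaged 8.79 ± 0.44 in CD172a+ arrays labelled CKO (SD, n = 4), 5.26 ± 0.23 in CD24+ control arrays (n = 3) and 8.33 ± 0.19 in CD172a+ control arrays (n = 4). It was therefore not lower in the arrays labelled CKO than in their controls, and because the probes may lie outside the deleted part this does not check the deletion. The arrays also fell into 2 sets, found from the values of all genes, that cross the groups and that no label names. Set 1 held replicates 1 and 2 of both CD172a+ groups and replicate 1 of the CD24+ group, and set 2 held the rest, so values are also given within sets. Because the sets come from the same values that are tested, an adjusted p with array set as a block may be too small. Some markers of other cell types moved with the groups. In arrays labelled CKO against CD172a+ controls, 1 of 7 pDC markers (Cox6a2) and 1 of 8 B cell markers (Fcer2a) rose and 1 of 7 monocyte markers (Lyz2) fell, while none of the cDC, macrophage, T cell, NK cell, neutrophil or erythroid and platelet markers was called. With array set as a block, limma also called the B cell marker Ms4a1 (2.02, adjusted p = 0.00201) and the monocyte marker Csf1r (-0.94, adjusted p = 0.0304), and the median over the monocyte markers was -0.94.

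CD24+ control cDCs had higher levels of a small group of Rab genes than CD172a+ control cDCs. Rab7b, a late endosomal Rab that moves cargo towards the Golgi, was 34.9-fold higher as fitted, and Rab32, a Rab of lysosome-related organelles, was 3.27-fold higher. Rab11a of the recycling endosome, Rab43 of the Golgi and Rab10 of exocytic carriers were 2.06-fold, 1.9-fold and 1.7-fold higher. In all, 8 of 62 members rose and 0 fell, that is 12.9% of members, against 6.41% of all genes called in either direction, 3.25% called higher and 3.16% called lower. The other called members were Rab6a, Rab12 and Rab5if. By their mean over all arrays, all 8 lay above the median level of all genes, from percentile 55.3 in Rab12 to 96.1 in Rab10. That mean includes the CD24+ arrays, in which these members were called higher. Rab7b averaged 10.52 in CD24+ controls but 5.40 in CD172a+ controls, below the median level of 5.53. The shares given here were not matched for level. At an unadjusted p below 0.05 there were 20 of 62 members, against 15.9% of all genes. The median difference over the members was 0.05 on the log2 scale, against -0.02 over all genes. With the array set as a block in the model, 14 of 62 members were called, 12 higher and 2 lower, against 15.4% of all genes.

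**Figure D1:**
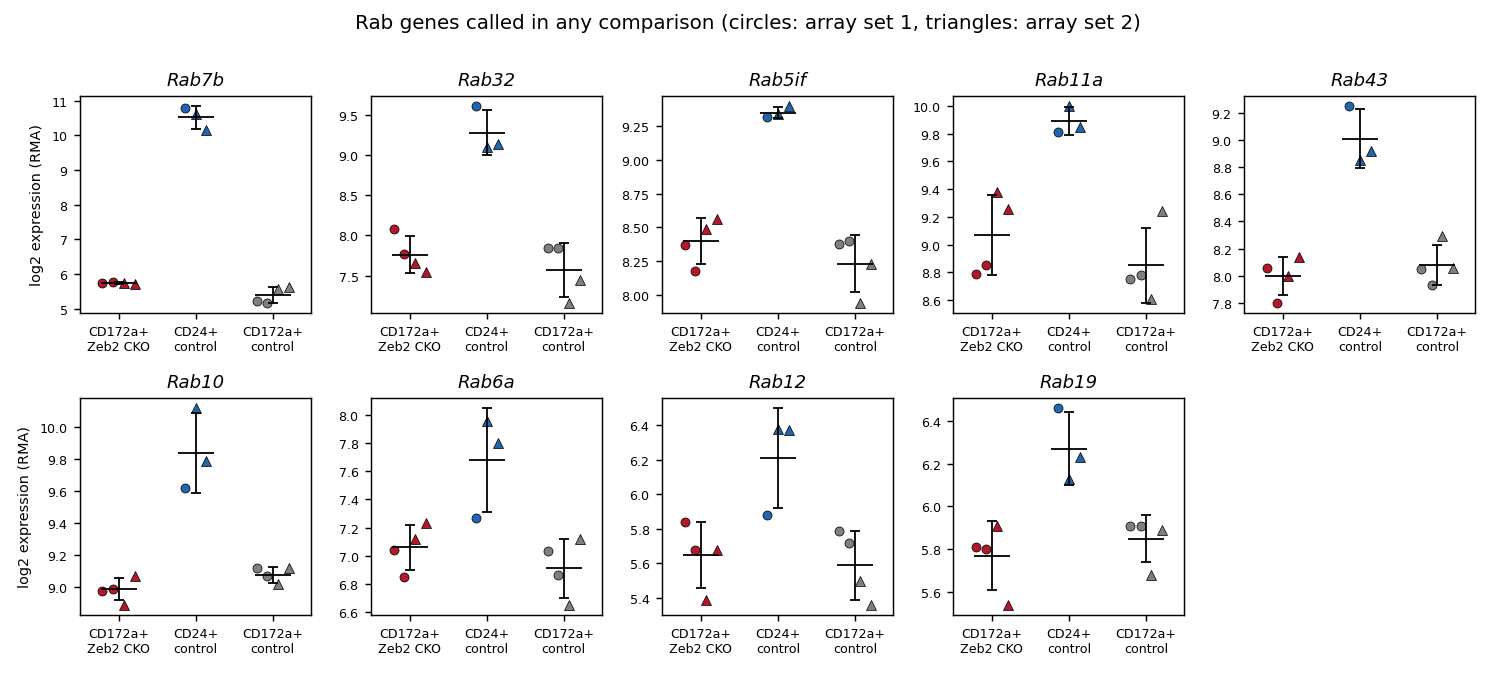
Log2 expression (RMA) of the 9 members called in any comparison, in CD172a+ cDCs labelled Zeb2 CKO (red), CD24+ control cDCs (blue) and CD172a+ control cDCs (grey); each point is 1 array, circles are set 1, triangles set 2, and bars are the mean and SD. Rab7b lies between 10.15 and 10.79 in CD24+ control arrays and below 5.8 in all other arrays, while in Rab12 the CD24+ array of set 1 lies close to the CD172a+ arrays.

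In CD172a+ cDCs labelled CKO against CD172a+ control cDCs no Rab gene passed the test. The count was 0 of 62 by limma, against 0.0502% of all genes called and 0.0401% called higher. At an unadjusted p below 0.05 there were 2 of 62 members, against 3.88% of all genes. The lowest adjusted p among the members was 0.998. Differences ranged from -0.40 in Rab11b, by its probe set of highest mean, to 0.41 in Rab30. The other Rab11b probe set went in the opposite direction on average. The median was 0.02 over the members and 0.01 over all genes. The 95% interval lay within a 2-fold change in either direction for 57 of 62 members. These include members low on the array, such as Rab33a, Rab3c and Rab3b at percentiles 4.2, 9.8 and 11.4 by mean. RMA can shrink differences there, so a narrow interval does not bound the change in RNA of such members. Rab11b, Rab1b, Rab4b, Rab5b and Rab5c had wider intervals, reaching at most -1.12 in Rab1b, so a change beyond 2-fold could not be told from none for these genes. Only Rab7b had groups that did not overlap, 1.61% of members against 2.1% of all genes.

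**Figure D2:**
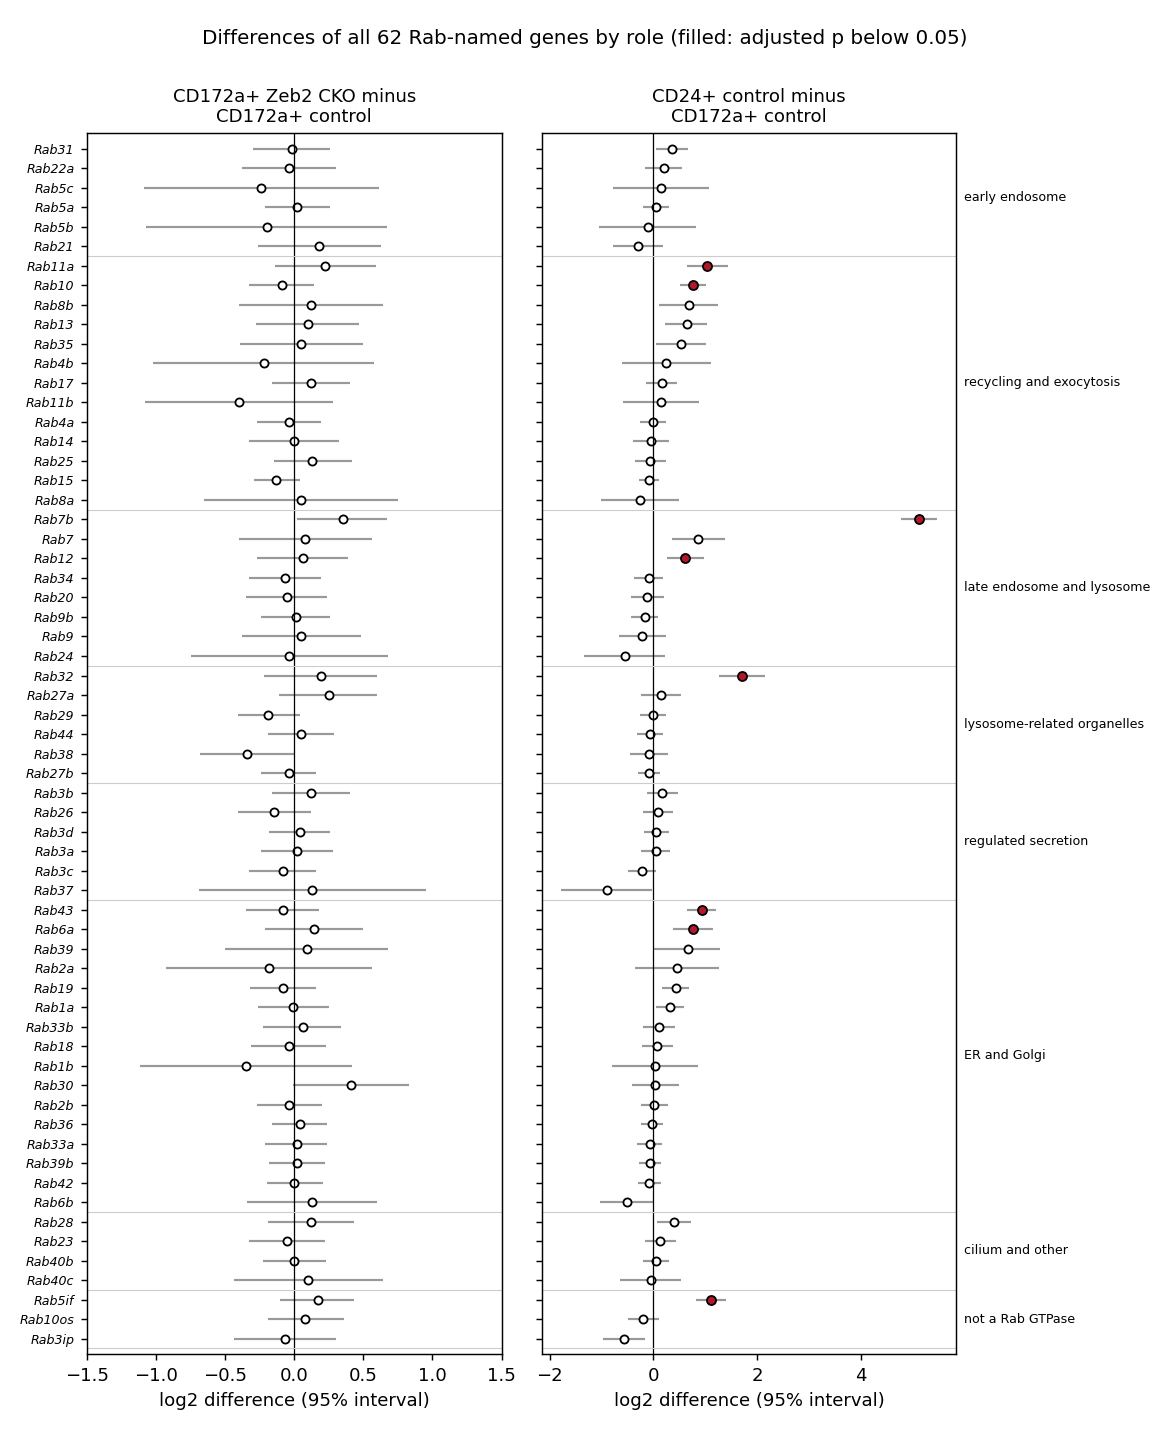
Log2 difference and 95% interval (limma) of each of the 62 members, grouped by role, in CD172a+ cDCs labelled Zeb2 CKO minus CD172a+ controls (left, axis from -1.5 to 1.5) and CD24+ minus CD172a+ controls (right, wider axis). Filled points have an adjusted p below 0.05; there are 0 on the left and 8 on the right, all above 0.

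The arrays labelled CKO were also set against CD24+ control arrays. Here Rab7b, Rab43, Rab32, Rab10, Rab5if, Rab11a and Rab19 were called, all of them lower in the arrays labelled CKO. They make 7 of 62 members, that is 11.3% of members against 7.17% of all genes called and 3.92% called lower. At an unadjusted p below 0.05 there were 18 of 62 members, against 18.0% of all genes. The groups did not overlap in 16 members, 25.8%, against 17.9% of all genes. This comparison shares its CKO arrays or its CD24+ arrays with the other comparisons, so the values are given side by side for each gene below and are not independent. With the array set as a block, 20 of 62 members were called, 5 higher and 15 lower, against 18.3% of all genes.

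The late endosomal and lysosomal group held 8 members, of which 2 rose in CD24+ against CD172a+ controls and 6 did not pass. Rab7b read 5.75, 5.78, 5.74 and 5.72 in CD172a+ arrays labelled CKO, 10.79, 10.63 and 10.15 in CD24+ control arrays, and 5.22, 5.18, 5.58 and 5.62 in CD172a+ control arrays. All CD24+ arrays lay far above every CD172a+ array, and the 4 arrays labelled CKO lay just above all 4 of their controls. CD24+ minus CD172a+ controls was 5.12 (SE 0.159, limma adjusted p = 2.74e-08), with 5.59 within set 1 and 4.79 within set 2. Arrays labelled CKO minus CD24+ controls was -4.78 (SE 0.159, adjusted p = 5.83e-08). Against CD172a+ controls the arrays labelled CKO differed by 0.35 (SE 0.148, 95% interval 0.02 to 0.67), which had an unadjusted p of 0.0382 and an adjusted p of 0.998 in limma. That difference was 0.56 within set 1 and 0.13 within set 2. The CD172a+ control mean of Rab7b was 5.40, below the median level of 5.53 over all genes. No detection calls were used here and RMA can shrink differences near background, so the folds of Rab7b are fitted values and not measured bounds.

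Rab7, which drives fusion of late endosomes with lysosomes, read 9.58, 9.65, 9.26 and 9.05 in arrays labelled CKO, 10.08, 10.22 and 10.25 in CD24+ control arrays, and 9.55, 9.44, 9.63 and 8.61 in CD172a+ control arrays. The CD24+ arrays lay above all others, yet neither comparison was called, with a CD24+ minus CD172a+ control difference of 0.87 (adjusted p = 0.0509) and an arrays labelled CKO minus CD24+ difference of -0.80 (adjusted p = 0.0719). With array set as a block limma called the CD24+ minus CD172a+ control difference, at 0.92 and adjusted p = 0.00787, and the arrays labelled CKO minus CD24+ difference, at -0.84 and adjusted p = 0.0119. Rab12, which sends cargo such as the transferrin receptor to lysosomes, read 5.84, 5.68, 5.39 and 5.68 in arrays labelled CKO, 5.88, 6.38 and 6.37 in CD24+ control arrays, and 5.79, 5.72, 5.5 and 5.36 in CD172a+ control arrays. The CD24+ array of set 1 was only just above the CD172a+ arrays. The CD24+ minus CD172a+ control difference was 0.62 (SE 0.161, adjusted p = 0.0446), but it was 0.12 within set 1 and 0.95 within set 2. Leaving out 1 array at a time lost this call in 8 of 11 fits, with differences of 0.53 to 0.66 and adjusted p of 0.0513 to 0.181. Those arrays were CD172a+ control replicates 2, 3 and 4, CKO replicates 1, 2 and 4, and CD24+ replicates 2 and 3. Arrays labelled CKO minus CD24+ controls was -0.56 (adjusted p = 0.0638), and with array set as a block -0.58, which was called (adjusted p = 0.0215). Rab34, which positions lysosomes, differed by -0.09 between CD24+ and CD172a+ controls and by -0.07 between arrays labelled CKO and CD172a+ controls, and was not called.

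Of 6 members tied to lysosome-related organelles, 1 rose in CD24+ cDCs and 5 did not pass. Rab32, which with its relative Rab38 directs cargo to melanosomes and to other lysosome-related organelles, read 8.08, 7.77, 7.66 and 7.55 in arrays labelled CKO, 9.61, 9.10 and 9.14 in CD24+ control arrays, and 7.84, 7.84, 7.16 and 7.44 in CD172a+ control arrays. CD24+ arrays lay more than a log2 unit above the highest CD172a+ array, and the CD172a+ groups overlapped. The CD24+ minus CD172a+ control difference of 1.71 (SE 0.199, adjusted p = 0.000294) was alike in the sets, at 1.77 and 1.82. Arrays labelled CKO minus CD24+ controls was -1.52 (SE 0.199, adjusted p = 0.000641), and minus CD172a+ controls 0.19 (95% interval -0.22 to 0.60). Rab38 was not called in any comparison. It read 6.49, 6.26, 6.62 and 6.39 in arrays labelled CKO, 6.67, 6.58 and 6.85 in CD24+ control arrays, and 7.0, 7.08, 6.66 and 6.37 in CD172a+ control arrays, with all groups overlapping. Its difference between arrays labelled CKO and CD172a+ controls was -0.34 (SE 0.154, unadjusted p = 0.0498, adjusted p = 0.998), with -0.67 within set 1 and -0.02 within set 2. The difference was thus larger in replicates 1 and 2 than in replicates 3 and 4.

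Rab27a, which in mouse dendritic cells brings the NADPH oxidase to phagosomes, read 6.94, 6.78, 6.90 and 6.75 in arrays labelled CKO, 6.61, 6.78 and 6.83 in CD24+ control arrays, and 7.03, 6.78, 6.20 and 6.37 in CD172a+ control arrays. The groups overlapped and the difference between arrays labelled CKO and CD172a+ controls was 0.25 (95% interval -0.11 to 0.60). Rab27b, its close relative in granule secretion, lay between 3.83 and 4.18 on all arrays. That is percentile 16.7 of all genes by its mean, a low level at which RMA can shrink differences. Rab29, which acts with the kinase Lrrk2 at the Golgi and lysosome, averaged 7.77 ± 0.19 in arrays labelled CKO and 7.96 ± 0.05 in CD172a+ control arrays (SD, n = 4 each) and was not called.

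Recycling and exocytosis were represented by 13 members, of which 2 rose in CD24+ cDCs and 11 did not pass. Rab11a, the Rab of the recycling endosome, which in mouse dendritic cells holds a store of MHC class I, read 8.79, 8.85, 9.38 and 9.26 in arrays labelled CKO, 9.81, 10.00 and 9.85 in CD24+ control arrays, and 8.75, 8.78, 8.61 and 9.24 in CD172a+ control arrays. CD24+ arrays lay above all others and the CD172a+ groups overlapped. CD24+ minus CD172a+ controls was 1.04 (SE 0.179, adjusted p = 0.0044), with 1.04 within set 1 and 1.00 within set 2. Arrays labelled CKO minus CD24+ controls was -0.82 (SE 0.179, adjusted p = 0.0176), a call lost without CKO replicate 2, CD24+ replicate 2 or CD24+ replicate 3, where the differences were -0.84 to -0.74 and the adjusted p 0.0537 to 0.079. Its paralog Rab11b was not called, averaging 7.74 ± 0.64 in arrays labelled CKO, 8.29 ± 0.29 in CD24+ control arrays and 8.14 ± 0.43 in CD172a+ control arrays. With array set as a block, however, limma called it in arrays labelled CKO against CD24+ controls, at -0.68 (adjusted p = 0.00465). These values come from its probe set of highest mean. The other Rab11b probe set overlapped between all groups. On average this other probe set was higher, not lower, in arrays labelled CKO than in CD172a+ controls, and close to level with CD24+ controls. It read 6.86, 6.37, 6.37 and 6.15 in arrays labelled CKO and 6.35, 6.35 and 6.68 in CD24+ control arrays. In CD172a+ control arrays it read 6.41, 6.24, 6.20 and 5.87.

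Rab10, which carries vesicles to the plasma membrane and in mouse macrophages brings TLR4 to the surface, read 8.98, 8.99, 8.89 and 9.07 in arrays labelled CKO, 9.62, 10.12 and 9.79 in CD24+ control arrays, and 9.12, 9.07, 9.02 and 9.12 in CD172a+ control arrays. The CD172a+ groups kept within a narrow range and all CD24+ arrays lay above it. The CD24+ minus CD172a+ control difference was 0.76 (SE 0.113, adjusted p = 0.00161), with 0.53 within set 1, where it was not called (adjusted p = 0.0604), and 0.88 within set 2. Arrays labelled CKO minus CD24+ controls was -0.86 (SE 0.113, adjusted p = 0.000669). Rab35, which returns receptors to the plasma membrane, and Rab14, which marks endosomes used in cross-presentation, differed by 0.54 (adjusted p = 0.227) and -0.04 (adjusted p = 0.958) between CD24+ and CD172a+ controls. With array set as a block, Rab35 was called in this comparison (0.60, adjusted p = 0.0356) and in arrays labelled CKO against CD24+ controls (-0.54, adjusted p = 0.0484). Rab15, of early and recycling endosomes, averaged 3.77 ± 0.09 in arrays labelled CKO and 3.89 ± 0.06 in CD172a+ control arrays, a difference of -0.13 that was not called. Its mean over all arrays lay at percentile 14.1 of all genes, where RMA can shrink differences.

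The Golgi and endoplasmic reticulum group was the most numerous, with 16 members, of which 2 rose in CD24+ cDCs and 14 did not pass. Rab43, a Golgi Rab needed for cross-presentation by cDC1 in the mouse, read 8.06, 7.80, 8.0 and 8.14 in arrays labelled CKO, 9.25, 8.85 and 8.92 in CD24+ control arrays, and 8.05, 7.93, 8.29 and 8.06 in CD172a+ control arrays. Every CD24+ array lay above every CD172a+ array. CD24+ minus CD172a+ controls was 0.93 (SE 0.13, adjusted p = 0.00107), with 1.26 within set 1 and 0.71 within set 2. Arrays labelled CKO minus CD24+ controls was -1.01 (SE 0.13, adjusted p = 0.000576), and minus CD172a+ controls -0.08 (95% interval -0.35 to 0.18).

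Rab6a, which carries retrograde traffic to and within the Golgi, read 7.04, 6.85, 7.12 and 7.23 in arrays labelled CKO, 7.27, 7.96 and 7.80 in CD24+ control arrays, and 7.03, 6.86, 6.65 and 7.12 in CD172a+ control arrays. The CD24+ array of set 1 lay next to the highest array labelled CKO. CD24+ minus CD172a+ controls was 0.76 (SE 0.174, adjusted p = 0.0239), with 0.32 within set 1 and 1.00 within set 2, and the call was lost without CD172a+ control replicate 2 or 3 or CD24+ replicate 2 or 3 (differences 0.62 to 0.75, adjusted p 0.0586 to 0.112). Against CD24+ controls the arrays labelled CKO differed by -0.62 (adjusted p = 0.0603) and were not called, whereas with array set as a block they were, at -0.58 (adjusted p = 0.0181).

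Rab19, a Rab listed here with the Golgi group, read 5.81, 5.80, 5.91 and 5.54 in arrays labelled CKO, 6.46, 6.13 and 6.23 in CD24+ control arrays, and 5.91, 5.91, 5.68 and 5.89 in CD172a+ control arrays. CD24+ arrays lay above all others. It was called in arrays labelled CKO against CD24+ controls, at -0.51 (SE 0.117, adjusted p = 0.0233). The CD24+ minus CD172a+ control difference of 0.43 was not called (adjusted p = 0.0578), but with array set as a block it was, at 0.45 (adjusted p = 0.0117). The first call was lost without CD24+ replicate 1 or 3 or CKO replicate 2 or 4, with differences of -0.53 to -0.41 and adjusted p of 0.0525 to 0.0941.

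Rab30, a Golgi Rab, had the highest difference of arrays labelled CKO over CD172a+ controls. It read 8.14, 8.11, 7.48 and 7.94 in arrays labelled CKO, 7.70, 7.53 and 7.41 in CD24+ control arrays, and 7.83, 7.73, 7.03 and 7.45 in CD172a+ control arrays. The difference of 0.41 (SE 0.192, unadjusted p = 0.0572) was 0.35 within set 1 and 0.47 within set 2, and the groups overlapped. Rab39, which has been linked to cross-presentation in mouse dendritic cells, read 5.29, 5.24, 5.91 and 5.49 in arrays labelled CKO, 6.92, 5.54 and 5.69 in CD24+ control arrays, and 5.43, 5.47, 5.23 and 5.43 in CD172a+ control arrays. Its CD24+ mean rested on replicate 1, and the CD24+ minus CD172a+ control difference of 0.66 was not called (adjusted p = 0.286).

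None of the 6 early endosomal members and none of the 6 of regulated secretion was called in any comparison without the array set in the model. With array set as a block, Rab5c (-0.56, adjusted p = 0.0144) and Rab21 (0.54, adjusted p = 0.0406), both of early endosomes, were called by limma in arrays labelled CKO against CD24+ controls. The Rab5 proteins drive the fusion of early endosomes. Rab5a averaged 7.94 ± 0.03 in arrays labelled CKO, 7.96 ± 0.03 in CD24+ control arrays (n = 3) and 7.91 ± 0.22 in CD172a+ control arrays (SD, n = 4), with 95% intervals of -0.21 to 0.26 for arrays labelled CKO minus CD172a+ controls and -0.20 to 0.30 for CD24+ minus CD172a+ controls. Rab5c varied far more within groups, with 9.52, 9.31, 8.22 and 8.39 in arrays labelled CKO, 9.71, 9.22 and 8.83 in CD24+ control arrays, and 9.78, 9.61, 8.67 and 8.35 in CD172a+ control arrays. Its higher arrays in every group were those of set 1. Rab5b had a similar spread, from 5.46 to 7.36 in arrays labelled CKO and 6.10 to 7.29 in CD172a+ controls. Rab22a, which in mouse dendritic cells recycles MHC class I, averaged 7.0 ± 0.25 in arrays labelled CKO, 7.24 ± 0.26 in CD24+ control arrays and 7.04 ± 0.18 in CD172a+ control arrays.

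Rab3b and Rab3c, synaptic-vesicle Rabs that have been placed on MHC class I storage vesicles of mouse dendritic cells, averaged 3.65 ± 0.07 and 3.50 ± 0.17 in arrays labelled CKO, 3.70 ± 0.29 and 3.36 ± 0.18 in CD24+ control arrays, and 3.53 ± 0.15 and 3.58 ± 0.09 in CD172a+ control arrays. Neither was called in any comparison. By their means over all arrays they lay at percentiles 11.4 and 9.8 of all genes. Values this low do not show whether either gene was expressed, and RMA can shrink differences there. Rab37, a Rab of secretory granules, was among 4 members whose CD24+ arrays all lay below the CD172a+ control arrays, with Rab24, Rab6b and Rab3ip. It read 7.56, 7.36, 6.16 and 5.94 in arrays labelled CKO, 5.65, 5.67 and 5.85 in CD24+ control arrays, and 6.95, 7.21, 6.19 and 6.16 in CD172a+ control arrays. Its CD24+ minus CD172a+ control difference was -0.90 (adjusted p = 0.297), and -0.76 with array set as a block (adjusted p = 0.0483). With that block, arrays labelled CKO minus CD24+ controls was 0.89 (adjusted p = 0.0203). In all, 16 of 62 members did not overlap between CD24+ and CD172a+ controls, 12 with CD24+ above, which is 25.8% of members against 14.6% of all genes.

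**Figure D3:**
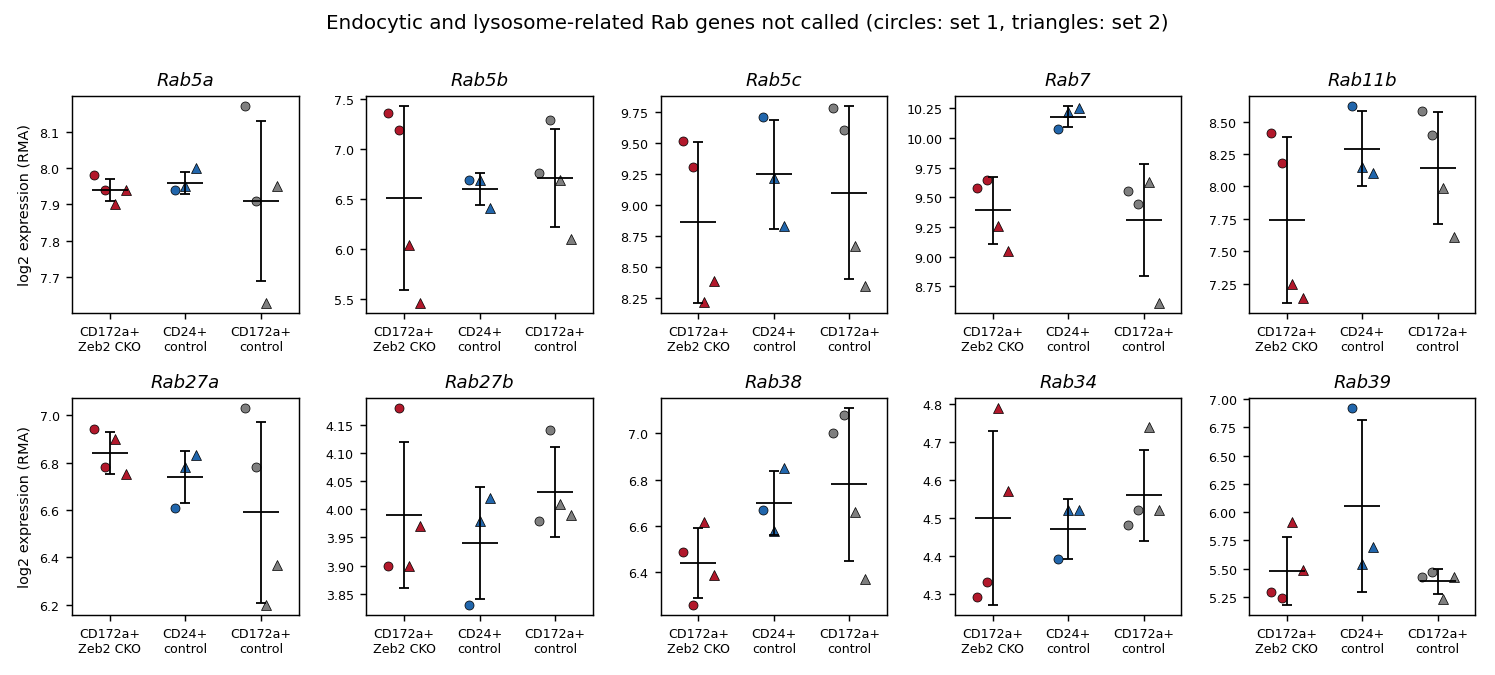
Log2 expression (RMA) of 10 endocytic and lysosome-related members not called in any comparison, in CD172a+ cDCs labelled Zeb2 CKO (red), CD24+ control cDCs (blue) and CD172a+ control cDCs (grey); points are arrays (circles set 1, triangles set 2) and bars the mean and SD, with a separate axis for each gene. In Rab5c and Rab11b the set 1 arrays lie above the set 2 arrays in every group, and in Rab7 the CD24+ arrays lie above all others.

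Among the members that are not Rab GTPases, Rab5if, a membrane protein named for an interaction with Rab5, read 8.37, 8.18, 8.49 and 8.56 in arrays labelled CKO, 9.32, 9.34 and 9.40 in CD24+ control arrays, and 8.38, 8.40, 7.94 and 8.23 in CD172a+ control arrays. CD24+ arrays lay above all others, by 1.12 over CD172a+ controls (SE 0.13, adjusted p = 0.000289), and arrays labelled CKO minus CD24+ controls was -0.95 (SE 0.13, adjusted p = 0.000819). Without Rab5if, Rab3ip and Rab10os, 7 of 59 Rab GTPases rose in CD24+ against CD172a+ controls, where 3.25% of all genes were called higher, and 6 of 59 fell in arrays labelled CKO against CD24+ controls, where 3.92% were called lower.

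The promoters of called members were read from RefSeq (GRCm38.p6), which held entries for 7 of the 8 called Rab GTPases. It held none for Rab7b, the member with the largest difference. Those of Rab32, Rab10 and Rab11a are shown from among the genes that rose in CD24+ cDCs. Rab43, Rab6a and Rab12 rose as well and are not shown. The Rab10 promoter was richest in G or C at 74.8%, but a Rab43 promoter held 71.2% and the Rab12 promoter 67.6%. The promoter of Rab19 is shown because it was the only one of the 7 genes with an E-box of the Zeb type. Each is the 250 bases before the annotated start, 5′ to 3′ in the direction of the gene. Capitals mark matches, on either strand, to any of the motifs searched. The GC box was searched as GGGCGG. The CCAAT box was searched by the letters of its name. The E-box bound by Zeb factors was searched as CAGGTG. The core of the interferon-stimulated response element was searched too, with any bases between its A-rich ends. An AP-1 site was searched as TGANTCA. The E-box of TFE and MITF factors was searched as CACGTG. These last motifs and a PU.1-IRF composite element had no match in the 7 genes. The matched motifs did not overlap one another in these windows.
Rab32 (chr10:10558208-10558457, minus strand): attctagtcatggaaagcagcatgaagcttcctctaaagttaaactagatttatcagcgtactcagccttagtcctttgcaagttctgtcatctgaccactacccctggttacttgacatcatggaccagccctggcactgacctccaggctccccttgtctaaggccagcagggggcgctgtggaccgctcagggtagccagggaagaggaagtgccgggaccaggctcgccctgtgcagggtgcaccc
Rab10 (chr12:3309970-3310219, minus strand): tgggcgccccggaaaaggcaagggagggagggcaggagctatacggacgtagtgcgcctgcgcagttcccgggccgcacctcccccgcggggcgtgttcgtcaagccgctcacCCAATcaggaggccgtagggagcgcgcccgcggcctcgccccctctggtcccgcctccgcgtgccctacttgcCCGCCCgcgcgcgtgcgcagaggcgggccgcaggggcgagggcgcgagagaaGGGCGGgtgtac
Rab11a (chr9:64737757-64738006, minus strand): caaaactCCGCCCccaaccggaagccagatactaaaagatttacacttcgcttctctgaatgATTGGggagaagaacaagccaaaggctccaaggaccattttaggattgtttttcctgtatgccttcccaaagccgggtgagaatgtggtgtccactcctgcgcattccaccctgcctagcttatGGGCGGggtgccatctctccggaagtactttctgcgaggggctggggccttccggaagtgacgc
Rab19 (chr6:39381103-39381352, plus strand): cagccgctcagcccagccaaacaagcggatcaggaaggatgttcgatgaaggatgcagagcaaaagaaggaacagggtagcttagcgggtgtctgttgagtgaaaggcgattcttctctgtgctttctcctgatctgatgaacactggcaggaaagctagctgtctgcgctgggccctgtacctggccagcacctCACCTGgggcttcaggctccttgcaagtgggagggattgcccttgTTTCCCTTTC

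The Rab10 window was 74.8% G or C with 34 CG pairs, whereas the Rab32 window was 55.6% with 5 CG pairs, the Rab11a window 53.6% with 10 and the Rab19 window 55.2% with 6. The Rab32 window held none of the 7 motifs, Rab10 and Rab11a each held GC boxes and a CCAAT box, and Rab19 held the Zeb E-box and the interferon element. Over the family, 68.3% of 63 member promoters, belonging to 51 members, held a GC box, against 32.7% of all 32851 promoters, and the median member promoter was 60.8% G or C with 16 CG pairs, against 52.4% and 6 in all promoters. The Zeb E-box was in 14.3% of member promoters and 17.2% of all promoters, a CCAAT box in 41.3% and 33.8%, and the interferon element in 3.17% and 2.98%. The AP-1 site was in 3.17% of member promoters and 6.75% of all promoters, the E-box of TFE and MITF factors in 9.52% and 6.02%, and the composite element in 1.59% and 2.3%. A match describes letters only, and no binding was measured here.

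Rab regulators and effectors were taken from 4 lists, of which 128 of 136 genes were measured. In CD24+ against CD172a+ control cDCs 13 were called, 6 higher and 7 lower, 10.2% of the lists against 6.41% of all genes, and the median difference was -0.01. By list, 6 of 37 GEFs, 5 of 34 GAPs, 2 of 50 effectors and 0 of 7 genes of prenylation and extraction were called. Dennd3, the GEF of Rab12, read 8.90, 8.77, 7.95 and 8.12 in arrays labelled CKO, 6.58, 6.24 and 6.48 in CD24+ control arrays, and 8.96, 8.89, 8.06 and 7.87 in CD172a+ control arrays. The CD24+ arrays lay below all others, and CD24+ minus CD172a+ controls was -2.01 (SE 0.308, adjusted p = 0.00199), while Rab12 had the smallest difference of the members called higher. Rin2, a GEF of Rab5, read 7.04, 6.96, 7.21 and 7.17 in arrays labelled CKO, 4.96, 5.51 and 5.60 in CD24+ control arrays, and 7.26, 7.36, 7.28 and 7.06 in CD172a+ control arrays, a CD24+ minus CD172a+ control difference of -1.88 (adjusted p = 1.69e-05).

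Hps4, a subunit of the GEF of Rab32 and Rab38, was called higher in CD24+ cDCs, as Rab32 was, whereas Rab38 was not called. Hps4 read 6.75, 6.70, 6.64 and 6.86 in arrays labelled CKO, 7.55, 7.17 and 7.13 in CD24+ control arrays, and 6.63, 6.78, 7.04 and 6.66 in CD172a+ control arrays. Its CD24+ minus CD172a+ control difference was 0.51 (SE 0.132, adjusted p = 0.045), with 0.84 within set 1 and 0.31 within set 2. Its call was lost in 10 of 11 fits that left out 1 array, all but the one without CD172a+ control replicate 3, with differences of 0.37 to 0.58 and adjusted p of 0.0582 to 0.16. Hps1, the other subunit, which was named after its values were seen, differed by -0.11 (adjusted p = 0.862). Among the genes listed here as GEFs, Dennd1b and C9orf72 were higher by 1.11 and 1.04. C9orf72 encodes a component of a complex that acts on small GTPases at lysosomes. Dennd1a, like Dennd1b a GEF of Rab35, differed by -0.67 (adjusted p = 0.0345). Dennd1b was called in all 11 fits that left out 1 array. C9orf72 lost its call in 6 (0.90 to 1.11, adjusted p 0.0538 to 0.124), without any 1 CD24+ replicate or CD172a+ control replicate 1, 2 or 4. Dennd1a lost its call in 9 (-0.72 to -0.43, adjusted p 0.0505 to 0.0848), all but those without CD24+ replicate 1 or CD172a+ control replicate 3.

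The GAPs also divided. Rabgap1l, a GAP with Rab22a among its known substrates, read 6.39, 6.14, 6.65 and 6.66 in arrays labelled CKO, 7.29, 7.86 and 7.81 in CD24+ control arrays, and 5.88, 5.87, 6.00 and 6.53 in CD172a+ control arrays, with a CD24+ minus CD172a+ control difference of 1.58 (SE 0.202, adjusted p = 0.000562). Tbc1d8 and Tbc1d14 were higher by 0.62 and 0.45. Tbc1d8 lost its call in 8 of 11 fits that left out 1 array (0.52 to 0.64, adjusted p 0.0509 to 0.134), all but those without CD172a+ control replicate 1 or 2 or CKO replicate 3. Tbc1d14 lost it in 5 (0.35 to 0.47, adjusted p 0.0525 to 0.121), without CD24+ replicate 1 or 3 or CD172a+ control replicate 1, 3 or 4. Tbc1d4, a GAP of Rab10 known from insulin-regulated glucose uptake, read 8.24, 8.16, 8.18 and 8.38 in arrays labelled CKO, 6.27, 7.09 and 6.93 in CD24+ control arrays, and 8.09, 8.04, 8.49 and 8.15 in CD172a+ control arrays. Its CD24+ minus CD172a+ control difference was -1.43 (SE 0.183, adjusted p = 0.00057). Usp6nl, a GAP of Rab5 and Rab43, differed by -1.19 (adjusted p = 0.000307). Rab43 differed by 0.93, and Rab5a, Rab5b and Rab5c, none of them called, by 0.05, -0.11 and 0.15. The myosin Myo5a, a motor for Rab vesicles, differed by -1.08 (adjusted p = 0.000486). A link between the levels of regulators and of their Rabs was not tested. The last called gene, Mical1, at -0.49 (adjusted p = 0.0469), lay outside the rule for named genes. Its CD24+ and CD172a+ control arrays overlapped, and its call was lost in 9 of 11 leave-one-out fits (adjusted p 0.0655 to 0.192), all but those without CD24+ replicate 1 or CD172a+ control replicate 4. Dennd3, Rin2, Tbc1d4, Usp6nl, Myo5a and Rabgap1l were called in all 11.

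**Figure D4:**
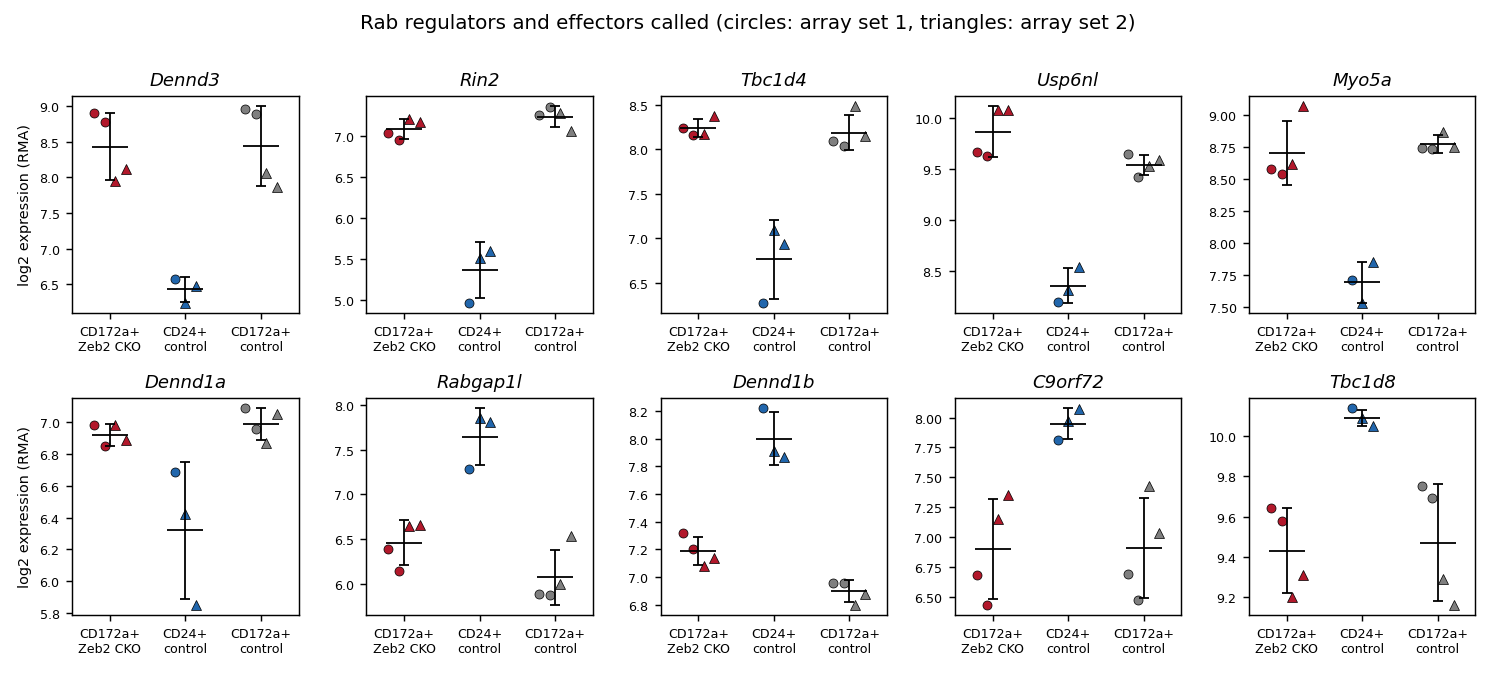
Log2 expression (RMA) of 10 called regulators and effectors of Rab proteins in CD172a+ cDCs labelled Zeb2 CKO (red), CD24+ control cDCs (blue) and CD172a+ control cDCs (grey); points are arrays (circles set 1, triangles set 2), bars the mean and SD, and each gene has its own axis. The CD24+ arrays lie below all CD172a+ arrays in Dennd3, Rin2, Tbc1d4, Usp6nl, Myo5a and Dennd1a and above them in Rabgap1l, Dennd1b, C9orf72 and Tbc1d8.

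In arrays labelled CKO against CD172a+ controls 0 of the 128 regulators and effectors were called by limma, against 0.0502% of all genes, 6 had an unadjusted p below 0.05, against 3.88% of all genes, and the differences ran from -0.39 to 0.39. Against CD24+ controls 14 were called in arrays labelled CKO, 5 higher and 9 lower, 10.9% of the lists against 7.17% of all genes. Dennd3, Rin2, Usp6nl, Tbc1d4 and Myo5a were higher, by 2.0, 1.74, 1.51, 1.48 and 1.01. Among those lower were Rabgap1l at -1.19, Dennd2d and C9orf72 at -1.05 each, Rabggtb, the catalytic subunit of the enzyme that prenylates Rabs, at -0.95, Dennd1b at -0.82 and the phosphatase Ocrl at -0.80. When 1 array was left out, Ocrl lost its call in 9 of 11 fits (-0.88 to -0.65, adjusted p 0.0521 to 0.196), all but those without CD24+ replicate 1 or CKO replicate 4. C9orf72 lost it in 5 (-1.12 to -0.89, adjusted p 0.0567 to 0.114), without any 1 CD24+ replicate or CKO replicate 1 or 2.

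Rab genes differed between the array sets no more often than other genes did. Before rounding, no member differed by 1 or more on average (0 of 62, against 2.69% of all genes), and the median over the members was -0.01. The largest average differences of set 2 from set 1 were -1.0 in Rab5c, -0.91 in Rab4b, -0.82 in Rab1b and -0.77 in Rab5b on the low side and 0.76 in Rab2a on the high side. In 13 of 62 members, 21.0%, the sets did not overlap in any group, against 25.2% of all genes. These included Rab32, whose set 2 arrays were lower in every group while its subset difference was alike in both sets. Summed as a list, splenic macrophage markers moved with the sets, though not every marker did. Their summed log2 level over 9 markers was 56.21 to 59.08 in set 2 against 47.01 to 47.12 in set 1 of the arrays labelled CKO, 51.26 to 51.58 against 45.75 in CD24+ control arrays, and 57.75 to 58.86 against 45.89 to 47.71 in CD172a+ control arrays. In CD24+ arrays the rise rested mainly on Spic (5.31 in set 1, 8.27 and 8.49 in set 2) and Vcam1 (6.26, then 7.74 and 7.65). Hmox1 was lower there in set 2 (7.50 and 7.54 against 7.68), and Cd163 and Slc40a1 barely changed. In arrays labelled CKO, C1qa read 5.60 and 5.53 in set 1 and 5.46 and 5.75 in set 2. No macrophage marker was called between groups, but with array set as a block 2 were lower in CD24+ than CD172a+ controls, among them C1qb at -1.53 (adjusted p = 0.000586), and 3 were higher in arrays labelled CKO than in CD24+ controls. Markers of other cell types also differed between the subsets, with 3 of 7 monocyte and 1 of 8 B cell markers lower in CD24+ than CD172a+ controls and 1 of 7 pDC markers higher and 1 lower. In arrays labelled CKO against CD24+ controls 5 of 7 monocyte markers were called, 3 higher and 2 lower, and 3 of 8 B cell markers were higher. Summed over the list, log2 levels of B cell markers were 43.58 to 46.55 in arrays labelled CKO, 37.65 to 39.44 in CD24+ control arrays and 39.47 to 42.4 in CD172a+ control arrays, whereas those of monocyte markers were 47.85 to 50.84 in arrays labelled CKO, 46.27 to 47.47 in CD24+ control arrays and 53.92 to 56.73 in CD172a+ control arrays. The B cell sum of the arrays labelled CKO rests on Ms4a1 and Fcer2a, which differed from CD172a+ controls by 2.02 and 2.05, while the list's median difference was 0.02 with 4 markers above 0 and 4 below. The part of these markers in the Rab results was not tested, and in sorted bulk RNA a change in the share of cells and a change in RNA per cell cannot be told apart.

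**Figure D5:**
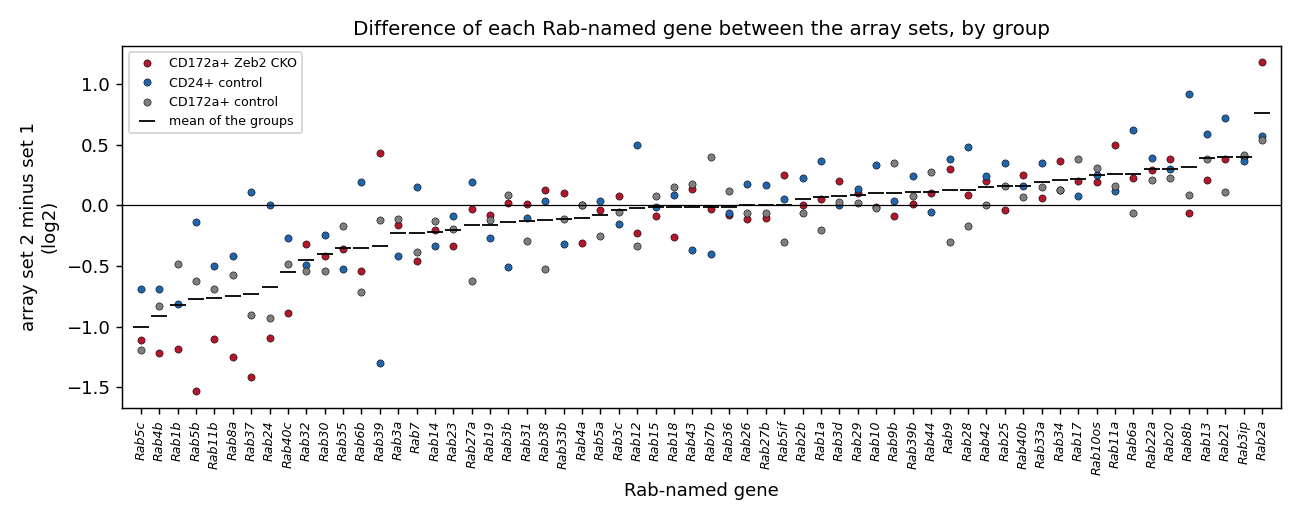
Mean log2 level in set 2 minus set 1 for each of the 62 members, ordered by the average over groups (dash), with CD172a+ cDCs labelled Zeb2 CKO in red, CD24+ controls in blue and CD172a+ controls in grey. Rab5c is lowest at -1.0 and Rab2a highest at 0.76, and most members lie near 0.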

How the data were processed

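The authors deposited log2 values per probe set of Affymetrix mouse gene arrays, and per the submitters' processing notes the tool was RMA. It corrects background, applies quantile normalization and summarises probes, which shrinks differences near background. Its version and the genome build are not given in the sources used here. Per the labels' protocols, spleens were dissociated with collagenase B plus DNase I, RNA was isolated with RNAqueous-Micro and targets were prepared with Ovation PicoSL. Array medians lay between 5.454 and 5.521 over 30177 probe sets, of which 21789 carried 1 gene symbol in the platform annotation, 1621 several and 6767 none. Each of 19938 genes took its probe set with 1 symbol and the highest mean over all arrays; 59 members had 1 such probe set and 3 had several. All 62 members matched RefSeq by Entrez identifier.

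Groups came from the titles. Limma 3.58.1 (R 4.3.3) fitted 1 linear model over 11 arrays with group as the only factor and 8 residual degrees of freedom, two-sided, with Benjamini-Hochberg adjustment over all genes and a threshold of 0.05. The number of arrays limits the precision. The script was tested on simulated data. Array set was added as a block and fitted within sets. Members, role lists, pathway lists and tests were chosen with earlier results of these data known. Named were all called members, the 6 of smallest p between the CD172a+ groups, a fixed set of endocytic and lysosomal Rabs, and up to 6 called pathway genes per direction and comparison. Rab5if and Rab10os were recognised as no Rab GTPases after the values were seen. Arrays of any pair held equal values for at most 5.52% of genes.

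Same-numbered arrays of the CD172a+ groups deviated together from their group means (r across genes from 0.442 to 0.68 in 4 pairs), as did other-numbered arrays of the same set (0.496 to 0.699), whereas arrays of different sets gave -0.692 to -0.404. Same-numbered arrays thus deviated together no more closely than other-numbered arrays of the same set. Same-numbered pairs with CD24+ arrays ran from -0.445 to 0.592. The labels state no pairing by number. Alternatives were the replicate number as a block, only the arrays compared, trended and robust variance moderation, centring on array medians, the mean of a gene's probe sets, only genes above the median level, and leaving out each array. Tables and figures used Python 3.11.15, pandas 2.3.3, numpy 2.4.6 and matplotlib 3.10.9.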

Additional observations from a re-analysis of the deposited data

Results flagged for a closer look

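Among 88 sets of 4 arrays tested for a single distant value (the gap to the nearest array divided by the range, above Dixon's critical value), 10 stood out, and chance flags about 1 in 20 such groups. Rab15 read 3.63 in CKO replicate 3, with a gap share of 1.0 because the other 3 arrays labelled CKO read alike. In CD172a+ control replicate 3, Rab19 read 5.68 (0.897), Rab34 read 4.74 (0.87), Rab39 read 5.23 (0.844) and Myo5a read 8.87 (0.888). The CD24+ minus CD172a+ control differences of Rab19, Rab34 and Rab39 were not called by limma with that array, nor without it, when they were 0.37 (adjusted p = 0.128), -0.03 (adjusted p = 0.961) and 0.61 (adjusted p = 0.447). Myo5a also stood out at 9.07 in CKO replicate 4 (0.849). In CD172a+ control replicate 4, Ocrl read 4.84 (0.844), Hps1 5.97 (0.876) and Zeb2 8.61 (0.92), and in CD172a+ control replicate 1 Dennd2d read 5.29 (0.909).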

How the results depend on the processing

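No called result reversed. Leaving out 1 array at a time gave 0 Rab members in arrays labelled CKO against CD172a+ controls, 6 to 10 in CD24+ against CD172a+ controls and 5 to 10 in arrays labelled CKO against CD24+ controls; for regulators and effectors the ranges were 0 to 0, 7 to 11 and 10 to 14, and for all genes 7 to 11, 874 to 1220 and 985 to 1533. Regulators and effectors in CD24+ against CD172a+ controls numbered 8 without CD24+ replicate 2, 7 without CD24+ replicate 3, 8 without CD172a+ control replicate 4 and 8 with only the groups compared, against 13. With array set as a block, counts in CD24+ against CD172a+ controls were 14 members, 32 regulators and effectors and 3080 genes, and in arrays labelled CKO against CD24+ controls 20, 34 and 3641. All genes called in arrays labelled CKO against CD172a+ controls numbered 29 with that block, 5 with only the groups compared, 0 within set 1 and 26 with a replicate block over CD172a+ arrays alone, an alternative chosen after seeing the data; Rab members stayed at 0 in each. The replicate block over all arrays gave 0, 12 and 12 Rab members in the order above, and within set 1 the last comparison gave 13, where the lone CD24+ array is assumed to vary like the other groups. Over single genes, 1320 of 1419 leave-one-out results and 1089 of 1183 others kept their direction and side of the threshold; 100 results of 29 genes changed sign where neither fit called them. The causes were not tested.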
